A study of Mus musculus with 24 samples.

Results

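Livers that lack the 3 PAR bZip transcription factors were compared between ZT04 and ZT16, zeitgeber times 12 h apart that count hours from lights on. In standard lighting ZT04 falls in the rest phase of mice and ZT16 in their active and feeding phase, but the labels do not give the light schedule. The members were the 4 knockout libraries of these times among the 24 libraries of the series, taken by their genotype and time labels and matched by the set letter (I or P) in their names. All carried the genotype Hlf-/-/Dbp-/-/Tef-/-, were fed ad libitum (AL) and came from mice of 12 to 16 weeks. Poly(A) RNA of whole liver was sequenced as stranded libraries. For reference, the other 8 knockout libraries (ZT08, ZT12, ZT20 and ZT24) and the 12 wild-type libraries (Hlf+/+/Dbp+/+/Tef+/+, same 6 times, feeding and age) were used. The labels name neither the parts of each gene that were removed nor the strain, do not spell out the sex or the meaning of the set letters, and do not say that libraries came from separate animals. P-values therefore cover only how far these libraries differ, which may be technical variation.

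DBP, TEF and HLF are closely related activators that bind D-box elements, and their own transcription is driven by the circadian clock, so that in liver they carry clock time to genes of drug, lipid and bile acid metabolism. The clock itself is a loop in which ARNTL (BMAL1) with CLOCK or NPAS2 drives the Per, Cry and Nr1d genes through E-boxes, PER and CRY proteins inhibit that drive, and NR1D1 and RORs act in opposite ways on Arntl. Liver also follows feeding, body temperature and hormones over the day, which reach it apart from its own clock. A knockout of the PAR bZip factors leaves the genes of the core loop in place.

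The 4 libraries held between 15653700 and 17410682 counts, and 13675 to 13946 genes had at least 10 counts in each. In a principal component analysis of the 12 knockout libraries, the second component (20.6% of the variance) held ZT04 at 17.4 and 16.2 and ZT16 at -29.2 and -21. Y-linked Ddx3y stood at 90.8 and 112 CPM at ZT04 and 85.8 and 104 CPM at ZT16, where CPM is a gene's count relative to its TMM-scaled library size. Wild-type set I stood apart from the other libraries. There Ddx3y was at 8.04 CPM at ZT04 and 7.73 CPM at ZT16, against 106 and 82 CPM in wild-type set P. Genes off the Y chromosome differed too, with Clock at 9.32 CPM in set I and 93.5 CPM in set P at ZT04. Levels relative to each gene's median over the 24 libraries correlated with its GC content. In wild-type set I r was 0.625 at ZT04 and 0.648 at ZT16, and in set P -0.0497 and 0.0537. In the 4 knockout libraries r ran from -0.365 to -0.0525. The cause was not tested. The 2 libraries of a group differed by a chi-square of 27.2 to 204 per degree of freedom in wild type and of 14.8 to 21.9 in knockout, so that the knockout comparison was fitted on knockout libraries alone. Hepatocyte markers carried the libraries, with a summed level of 54500 to 59500 CPM at ZT04 and 67400 to 73700 CPM at ZT16 over 10 markers, 1 of which (Tat, adjusted p 0.0221) passed the test, and not without ZT04 set P (0.166), ZT16 set I (0.0892) or ZT16 set P (0.0957), nor in the fit of all 24 libraries (0.148). Alb led this sum, at 3.01 and 3.46% of all counts at ZT04 and 4.96 and 4.29% at ZT16. The median log2 change of the 10 markers was 0.03, and 6 of them were higher at ZT16 in set I and 4 in set P. In whole liver fewer cells of a type and less RNA per cell cannot be told apart.

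The deleted genes checked the labels. Dbp had 0 counts in all 4 libraries, against 2.15 to 12 CPM in the wild-type libraries of the same times. Tef was at 5.93 and 11.2 CPM at ZT04 and 16 and 14.2 CPM at ZT16, while wild type ran from 106 to 229 CPM. Hlf was at 0.489 and 0.614 CPM at ZT04 and 2.25 and 2.7 CPM at ZT16, against 46.9 to 89.6 CPM in wild type. The low reads left over Hlf were more frequent at ZT16 (log2 change 2.16 ± 0.40 SE, adjusted p 0.00769, edgeR quasi-likelihood test), a call lost without the ZT04 set I library (adjusted p 0.0623). Reads from an undeleted part of these genes and reads from an intact transcript cannot be told apart here.

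At an adjusted p under 0.05, 669 genes were higher and 756 lower at ZT16 than at ZT04, which is 9.71% of the 14671 genes tested (4.56% higher and 5.15% lower). The log2 change, always ZT16 minus ZT04, was 1 or more in 205 of the genes that rose, and -1 or less in 198 of those that fell. Both ZT16 libraries lay beyond both ZT04 libraries for 667 and 755 of them, where 26.7% and 25.6% of all genes tested were so separated. The same libraries made the calls, so this is a description. The size of the lists rested on the libraries and the fit. Leaving out ZT04 set I gave 411 higher and 495 lower genes, without ZT04 set P there were 295 and 359, without ZT16 set I 217 and 183, and without ZT16 set P 463 and 480. A fit of all 24 libraries called 188 and 182. In the plot of change against level, the genes past the threshold reached from a mean log2 CPM below 0 to the most abundant transcripts.

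**Figure D1:**
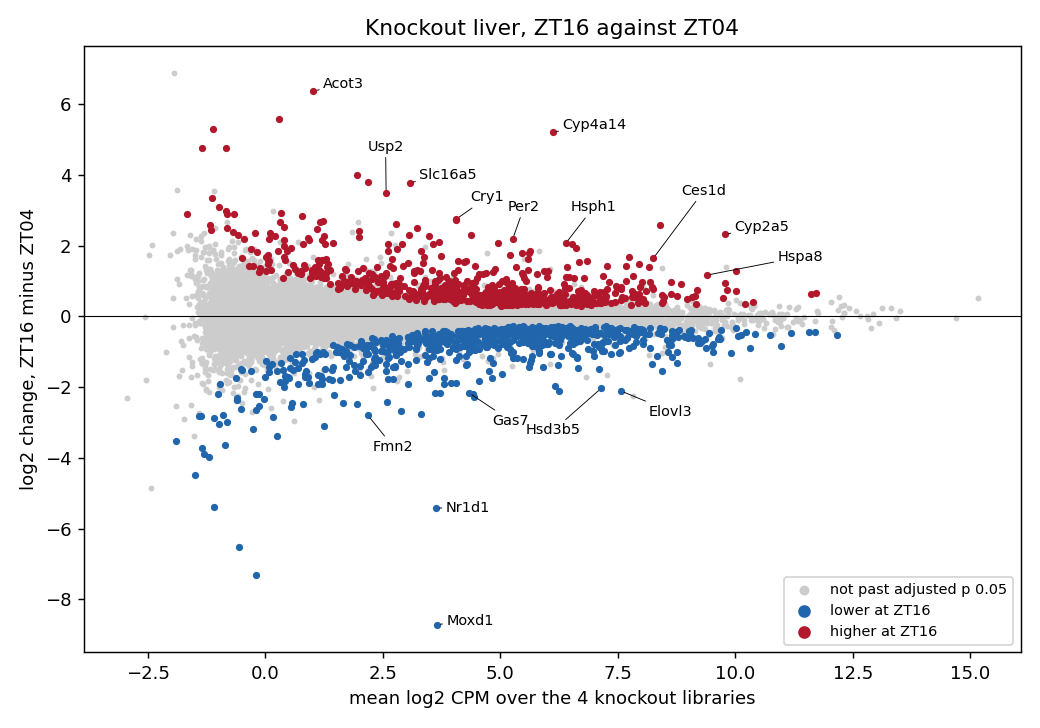
Each point is 1 gene in knockout liver, with its mean log2 CPM over the 4 libraries on the x axis and its log2 change, ZT16 minus ZT04, on the y axis. Red points (669) were higher and blue points (756) lower at ZT16 at an adjusted p under 0.05, and grey points did not pass.

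Of 11 core clock repressors 5 rose and 2 fell, against 4.56% and 5.15% of all genes tested. Per and Cry genes were high at ZT16 and the Nr1d genes high at ZT04. Nr1d1, a repressor of Arntl, was at 76.9 and 86.1 CPM at ZT04 and 1.15 and 2.7 CPM at ZT16 (log2 change -5.42 ± 0.44 SE, adjusted p 0.00013). The ZT04 libraries were both far above the ZT16 libraries. Its paralog Nr1d2 was at 62.6 and 104 CPM at ZT04 and 23.4 and 38.1 CPM at ZT16 (-1.43 ± 0.30 SE, adjusted p 0.0133), and this call was lost without ZT04 set P (adjusted p 0.116) or ZT16 set I (0.128) and in the fit of all 24 libraries (0.177). Of the period genes, Per2 was at 20 and 16.1 CPM at ZT04 and 89.4 and 74.9 CPM at ZT16 (2.18 ± 0.15 SE, adjusted p 7e-05). Per1 was at 5.66 and 6.81 CPM at ZT04 and 30.6 and 23.2 CPM at ZT16 (2.11 ± 0.20 SE, adjusted p 0.000272). Both were high in both ZT16 libraries with no overlap. Per3 was at 2.45 and 7.92 CPM at ZT04 and 5.93 and 7.81 CPM at ZT16 and did not pass (0.45 ± 0.37 SE, adjusted p 0.497).

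Cry1, which encodes an inhibitor of the CLOCK complex, was at 7.45 and 5.4 CPM at ZT04 and 49.6 and 37.6 CPM at ZT16 (2.75 ± 0.22 SE, adjusted p 0.000127). Cry2 went from 24.4 and 28 CPM to 47.9 and 39.8 CPM (0.74 ± 0.11 SE, adjusted p 0.00313). Ciart, another repressor of the complex, was at 1.03 and 1.35 CPM at ZT04 and 2.63 and 4.71 CPM at ZT16 (1.60 ± 0.26 SE, adjusted p 0.00454). All 3 were higher in both ZT16 libraries than in either ZT04 library. The promoters of Per1, Cry1 and Ciart are shown because they hold the E-box CACGTG, the element the CLOCK complex binds, marked in capitals. The sequences are RefSeq windows on GRCm38.p6 of 250 bases before to 50 after a transcription start, 5′ to 3′ on the gene's strand (Per1 chr11:69098699-69098998, + strand; Cry1 chr10:85185005-85185304, - strand; Ciart chr3:95882179-95882478, - strand).
Per1: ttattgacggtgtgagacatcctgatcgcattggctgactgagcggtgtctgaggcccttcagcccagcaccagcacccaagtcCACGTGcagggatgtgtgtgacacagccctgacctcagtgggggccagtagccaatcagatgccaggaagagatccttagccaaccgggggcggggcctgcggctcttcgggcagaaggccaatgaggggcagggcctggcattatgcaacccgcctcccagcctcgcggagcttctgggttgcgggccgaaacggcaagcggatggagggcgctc
Cry1: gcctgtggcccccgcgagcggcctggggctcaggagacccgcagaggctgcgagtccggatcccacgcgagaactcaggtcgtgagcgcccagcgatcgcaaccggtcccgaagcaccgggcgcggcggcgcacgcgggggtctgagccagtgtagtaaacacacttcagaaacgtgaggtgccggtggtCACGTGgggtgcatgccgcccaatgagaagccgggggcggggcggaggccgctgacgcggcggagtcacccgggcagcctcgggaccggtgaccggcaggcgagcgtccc
Ciart: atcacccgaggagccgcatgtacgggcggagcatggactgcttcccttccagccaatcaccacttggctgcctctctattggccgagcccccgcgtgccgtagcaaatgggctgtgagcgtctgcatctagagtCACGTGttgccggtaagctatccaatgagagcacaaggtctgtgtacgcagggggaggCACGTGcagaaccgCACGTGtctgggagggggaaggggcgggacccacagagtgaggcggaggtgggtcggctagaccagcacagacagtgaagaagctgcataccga
The E-box began 166 bases before the start in Per1 and 60 bases before it in Cry1, and Ciart held 3, at 116, 58 and 44 bases before the start. On either strand this motif stood in 11.3% of the promoter windows of genes that rose, 10% of those of genes that fell and 9.57% of the windows of all genes tested.

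Among the activators of the clock, Arntl and Clock did not pass the test. Arntl was at 25.1 and 19.4 CPM at ZT04 and 30.6 and 20.8 CPM at ZT16 (0.20 ± 0.15 SE, adjusted p 0.449), and Clock was at 90.3 and 96.4 CPM at ZT04 and 84.5 and 82.7 CPM at ZT16 (-0.15 ± 0.16 SE, adjusted p 0.59). The libraries of the 2 times overlapped for Arntl. Npas2, which can stand in for CLOCK, fell, from 3.64 and 3.56 CPM to 1.04 and 0.172 CPM (-2.55 ± 0.42 SE, adjusted p 0.00467). Rora, a nuclear receptor that activates Arntl, did not pass (0.23, adjusted p 0.253). Nfil3, a bZip repressor that binds the same D-boxes as the deleted factors, was at 31.9 and 22.1 CPM at ZT04 and 21.7 and 19.5 CPM at ZT16 and did not pass (-0.39 ± 0.14 SE, adjusted p 0.115). Bhlhe40, Bhlhe41 and Arntl2 did not pass either (0.50, -1.07 and 0.02). A level of equal height at 2 times of day does not mean an even level over the day. Between ZT08 and ZT20, times that use other libraries, Arntl changed by 5.03 (adjusted p 2.4e-06), Clock by 1.65 (adjusted p 0.000197) and Nfil3 by 3.0 (adjusted p 5.52e-06), in each case higher at ZT20. The plot of clock genes over the 6 times shows ZT04 and ZT16 on opposite flanks of the trough of Arntl.

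**Figure D2:**
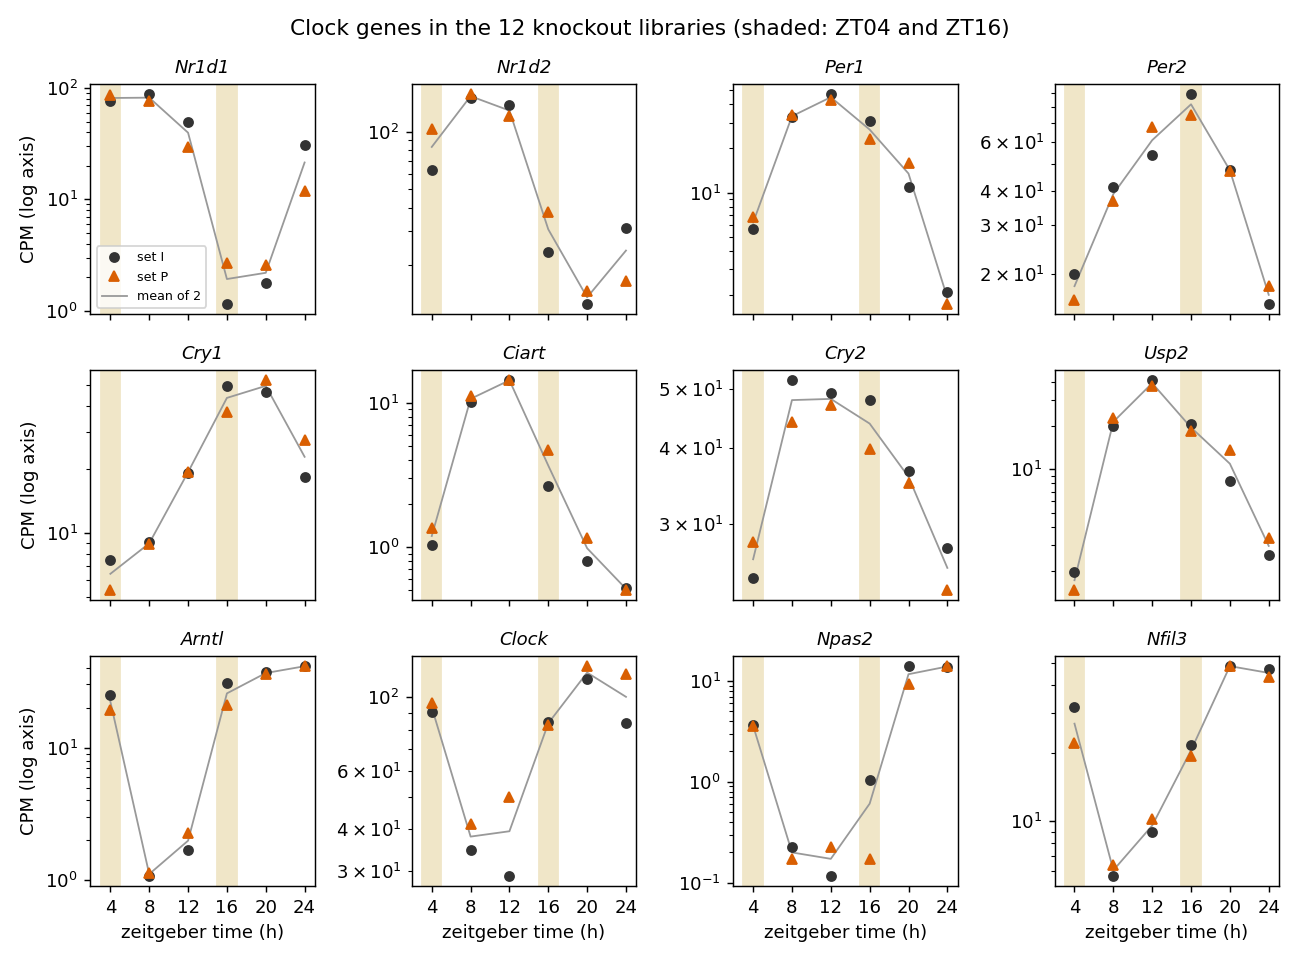
CPM on a log axis against zeitgeber time in hours for 12 clock genes in the 12 knockout libraries. Circles are set I, triangles set P and lines the mean of the 2, with ZT04 and ZT16 shaded. Arntl lies between 19.4 and 30.6 CPM at both shaded times, and Nr1d1 falls from 76.9 and 86.1 to 1.15 and 2.7 CPM.

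Among genes known as outputs of the liver clock more rose than fell. Of 30 listed outputs, 12 rose and 2 fell, against 4.56% and 5.15% of all genes tested. Their median log2 change was 0.47, against 0.01 over all genes tested. The most significant was St3gal5, a sialyltransferase of ganglioside synthesis, at 49.9 and 50 CPM at ZT04 and 187 and 192 CPM at ZT16 (1.92 ± 0.09 SE, adjusted p 5.34e-06). Usp2, which encodes a ubiquitin protease and stands in the list of clock partners, was at 1.96 and 1.47 CPM at ZT04 and 20.4 and 18.4 CPM at ZT16 (3.48 ± 0.24 SE, adjusted p 7e-05). Wee1, the kinase that restrains entry to mitosis, was at 3.1 and 2.76 CPM at ZT04 and 10.8 and 13.7 CPM at ZT16 (2.05 ± 0.24 SE, adjusted p 0.000872). For these 3 genes each ZT16 library was above each ZT04 library.
Nampt, the rate-limiting enzyme of NAD salvage, rose by 1.53 (adjusted p 0.000185, and 0.0795 in the fit of all 24 libraries). Tspan4 rose by 1.07 (adjusted p 0.000528) and Noct, an enzyme that acts on NADP(H), by 1.68 (adjusted p 0.00246, and 0.127 in that fit). Por, the electron donor of the microsomal P450 enzymes, was at 200.2 and 168 CPM at ZT04 and 358 and 369.9 CPM at ZT16 (0.98 ± 0.14 SE, adjusted p 0.00295). Elovl3, a fatty acid elongase, went the other way, from 438 and 348 CPM to 91.5 and 92.7 CPM (-2.11 ± 0.30 SE, adjusted p 0.00254). With 1 library left out, in the order ZT04 set I, ZT04 set P, ZT16 set I and ZT16 set P, the risen outputs were 10, 9, 8 and 10, and 7 in the fit of all 24 libraries.

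Acot3 and Cyp4a14, with some of the largest rises, are genes of fatty acid handling that PPAR-alpha, the nuclear receptor of fatty acids, is known to drive. Acot3, a peroxisomal acyl-CoA thioesterase, was at 0.109 and 0.245 CPM at ZT04 and 20.5 and 9.99 CPM at ZT16 (6.37 ± 0.65 SE, adjusted p 0.000478). Cyp4a14, a fatty acid omega-hydroxylase, was at 10.5 and 14.2 CPM at ZT04 and 599 and 255 CPM at ZT16 (5.21 ± 0.90 SE, adjusted p 0.00617). In both genes the ZT16 libraries were far above ZT04, and ZT16 set I was above set P. Acot3 at ZT04 rests on few reads, 2 and 4 counts. The neighbouring thioesterase Acot4 was at 19.1 and 22 CPM at ZT04 and 83.1 and 52.5 CPM at ZT16 (1.72 ± 0.23 SE, adjusted p 0.00175), and cytosolic Acot1 was at 5.87 and 6.08 CPM at ZT04 and 33.3 and 16.1 CPM at ZT16 (2.05 ± 0.33 SE, adjusted p 0.00419). Acot1, Acot3 and Acot4 are close copies on chromosome 12, and how reads were divided among them could not be checked. Pex11a, which promotes division of peroxisomes, was at 67.8 and 66.1 CPM at ZT04 and 115 and 120.3 CPM at ZT16 (0.81 ± 0.11 SE, adjusted p 0.00198). Over the 40 listed targets of PPAR-alpha, fatty acid oxidation and ketogenesis, 10 rose and 1 (Etfdh, -0.44) fell. Of all genes tested 4.56% rose and 5.15% fell. The median log2 change of the listed genes was 0.21. No member fell without ZT04 set P or ZT16 set P or in the fit of all 24 libraries. The risen members were 6, 7, 5 and 9 without ZT04 set I, ZT04 set P, ZT16 set I and ZT16 set P, and 5 in the fit of all 24 libraries. Cpt1a, the entry step of mitochondrial fatty acid oxidation, did not pass, at 330.2 and 396 CPM at ZT04 and 409 and 382 CPM at ZT16 (0.12 ± 0.12 SE, adjusted p 0.596).

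Other large rises included transporters. Slc16a5, a monocarboxylate transporter, was at 1.9 and 2.64 CPM at ZT04 and 43.7 and 20.4 CPM at ZT16 (3.78 ± 0.36 SE, adjusted p 0.00029), and Nipal1, a magnesium transporter, was at 0.326 and 1.9 CPM at ZT04 and 23.5 and 10.7 CPM at ZT16 (3.99 ± 0.62 SE, adjusted p 0.00367, and 0.0502 in the fit of all 24 libraries). Lingo4, a membrane protein with leucine-rich repeats, was at 0.816 and 0.859 CPM at ZT04 and 4.83 and 4.59 CPM at ZT16 (2.48 ± 0.27 SE, adjusted p 0.00066). Ces1d, a carboxylesterase that can release lipids for export, was at 177 and 171 CPM at ZT04 and 628 and 457 CPM at ZT16 (1.64 ± 0.18 SE, adjusted p 0.00066). Libraries of the 2 times did not overlap for any of these 4 genes. Acnat2, an acyl-CoA amino acid N-acyltransferase, rose by 2.29 ± 0.27 SE (adjusted p 0.00101).

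Most heat shock genes rose. Of 21 tested members of the list (1 further member was not tested for low counts), 14 rose and none fell, where 4.56% of all genes rose, and their median log2 change was 0.78. Hsph1, a nucleotide exchange factor of HSP70, was at 46.2 and 35.7 CPM at ZT04 and 172 and 176 CPM at ZT16 (2.07 ± 0.21 SE, adjusted p 0.000464). Hspa8, the constitutive HSP70, was at 388 and 519.6 CPM at ZT04 and 950.1 and 1077 CPM at ZT16 (1.17 ± 0.14 SE, adjusted p 0.00107). Dnaja1, a co-chaperone of HSP70, was at 142 and 146 CPM at ZT04 and 269.9 and 308 CPM at ZT16 (1.0 ± 0.12 SE, adjusted p 0.000872). Each ZT16 library was above each ZT04 library in all 3. Chordc1, which binds HSP90, rose by 1.12 ± 0.14 SE (adjusted p 0.00138) and Hspa4l by 1.32 ± 0.18 SE (adjusted p 0.00213). The count was 15, 10, 11 and 13 without ZT04 set I, ZT04 set P, ZT16 set I and ZT16 set P. In the fit of all 24 libraries it was 6, with Dnaja1, Chordc1 and Hspa4l at adjusted p of 0.304, 0.208 and 0.207. From ZT08 to ZT20, in other libraries, 11 of the 21 rose and none fell (6.5% of all genes rose there).

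The promoters of Hsph1 and Chordc1 are shown because they hold the core of the heat shock element, GAANNTTC, in capitals, the letters heat shock factors bind as inverted repeats (RefSeq, GRCm38.p6; Hsph1 chr5:149636266-149636565, - strand; Chordc1 chr9:18292017-18292316, + strand).
Hsph1: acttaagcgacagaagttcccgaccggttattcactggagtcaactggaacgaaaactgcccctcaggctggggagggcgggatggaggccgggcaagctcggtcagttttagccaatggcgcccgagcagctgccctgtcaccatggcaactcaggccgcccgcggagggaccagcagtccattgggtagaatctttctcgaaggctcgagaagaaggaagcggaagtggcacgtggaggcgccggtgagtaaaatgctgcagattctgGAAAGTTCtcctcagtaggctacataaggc
Chordc1: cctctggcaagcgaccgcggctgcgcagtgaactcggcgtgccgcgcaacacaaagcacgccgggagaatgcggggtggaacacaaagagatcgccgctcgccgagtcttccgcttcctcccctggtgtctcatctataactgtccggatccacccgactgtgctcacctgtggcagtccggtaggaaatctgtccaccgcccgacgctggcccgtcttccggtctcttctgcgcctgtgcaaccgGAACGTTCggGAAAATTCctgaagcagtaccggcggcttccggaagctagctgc
The core began 20 bases after the start in Hsph1, and Chordc1 held 2, beginning 4 bases before and 6 bases after the start. Over both strands it stood in 6.25% of the windows of genes that rose, 5.95% of those of genes that fell and 5.91% of all windows.

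Chaperones of the endoplasmic reticulum (ER) rose as well. Of 26 members of the list of the unfolded protein response and ER folding, 14 rose and 1 fell, with a median log2 change of 0.61. Among all genes tested 4.56% rose and 5.15% fell. Creld2, a disulfide isomerase-like ER stress gene, was at 17.4 and 12.5 CPM at ZT04 and 52.1 and 80.3 CPM at ZT16 (2.07 ± 0.26 SE, adjusted p 0.00138). Sdf2l1, a partner of ER chaperones, was at 17.6 and 15.1 CPM at ZT04 and 36 and 39.2 CPM at ZT16 (1.19 ± 0.16 SE, adjusted p 0.00197, and 0.0953 in the fit of all 24 libraries). Pdia4, a disulfide isomerase, was at 188 and 187 CPM at ZT04 and 344 and 326 CPM at ZT16 (0.84 ± 0.12 SE, adjusted p 0.00204). All ZT16 libraries exceeded all ZT04 libraries in these genes. Herpud1 and Sel1l, parts of the machinery that removes misfolded ER proteins, rose by 0.87 ± 0.08 SE (adjusted p 0.000275) and 0.64 ± 0.10 SE (adjusted p 0.00308). The member that fell was Ern1 (-0.52 ± 0.13 SE, adjusted p 0.0307), which encodes the ER stress sensor IRE1. No member fell without ZT04 set I, ZT04 set P or ZT16 set I, without the set letter in the model or in the fit of all 24 libraries. Xbp1, spliced by that sensor, did not pass (-0.27, adjusted p 0.147). The risen members were 15, 8, 10 and 13 without ZT04 set I, ZT04 set P, ZT16 set I and ZT16 set P, and 6 in the fit of all 24 libraries. Of 30 genes of ER translocation and COPII transport, 3 rose and none fell, or 10% called, where 9.71% of all genes tested were called and 4.56% rose. Those rises became 7, 0, 0 and 1 with the libraries left out in the same order and 0 in the fit of all 24 libraries.

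Genes whose liver expression differs between the sexes through the pattern of growth hormone moved in opposite directions, female-biased genes upwards and male-biased genes downwards. Of 14 tested female-biased genes (8 others were not tested for low counts), 9 rose and none fell, where 4.56% of all genes rose. The female-biased genes had a median log2 change of 2.09. Members could pass the filter on low counts through a time at which they were high, so that this count describes the tested members and not the whole list. Cux2, a female-biased regulator, was low in all libraries, at 0.544 and 0.43 CPM at ZT04 and 3.79 and 2.01 CPM at ZT16 (2.54 ± 0.38 SE, adjusted p 0.00301). Cyp2a4, a steroid hydroxylase, was at 115 and 173 CPM at ZT04 and 935 and 689 CPM at ZT16 (2.59 ± 0.32 SE, adjusted p 0.00112), and its near-identical neighbour Cyp2a5, a coumarin hydroxylase of the P450 list, was at 321 and 496 CPM at ZT04 and 2067 and 1828 CPM at ZT16 (2.32 ± 0.22 SE, adjusted p 0.000272). Reads of these copies could have been exchanged. Fmo2, a flavin monooxygenase, was at 3.54 and 4.3 CPM at ZT04 and 25.5 and 18.2 CPM at ZT16 (2.49 ± 0.23 SE, adjusted p 0.000272). In each of the 4 genes the lower ZT16 library exceeded the higher ZT04 library. Acot3 and Acot4 belong to this list too. The female-biased count was 7, 8, 7 and 8 with 1 library left out.

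Of 24 male-biased genes, 13 fell and none rose, with a median log2 change of -0.95, where 5.15% of all genes tested fell. Hsd3b5, a steroid-reducing enzyme of male liver, was at 312 and 263 CPM at ZT04 and 73.3 and 67.1 CPM at ZT16 (-2.03 ± 0.16 SE, adjusted p 0.000127, and 0.242 in the fit of all 24 libraries). Elovl3, described above, is in the same list. Cyp7b1, an oxysterol 7-hydroxylase, was at 607 and 595 CPM at ZT04 and 138 and 294 CPM at ZT16 (-1.54 ± 0.23 SE, adjusted p 0.00315, and 0.0765 in that fit). The libraries of the 2 times stood apart for these genes, with the higher values at ZT04. Moxd1 had the largest fall of all named genes, from 264 and 205 CPM to 0.11 and 1.89 CPM (-8.72 ± 2.01 SE, adjusted p 0.0215). That call did not hold without ZT04 set I (adjusted p 0.0716), ZT16 set I (0.131) or ZT16 set P (0.123), nor without the set letter in the model (0.064) or by limma-voom (0.173). The male-biased count was 4 without ZT04 set I, 8 without ZT04 set P, 5 without ZT16 set I and 13 without ZT16 set P. It was 8 without the set letter and 2 in the fit of all 24 libraries. In wild type between the same times, tested in that fit, 1 male-biased gene rose and none fell (median 0.43). Of the female-biased genes 1 rose and 1 fell there (median -0.06). The plot of 4 lists sets both genotypes side by side.

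**Figure D3:**
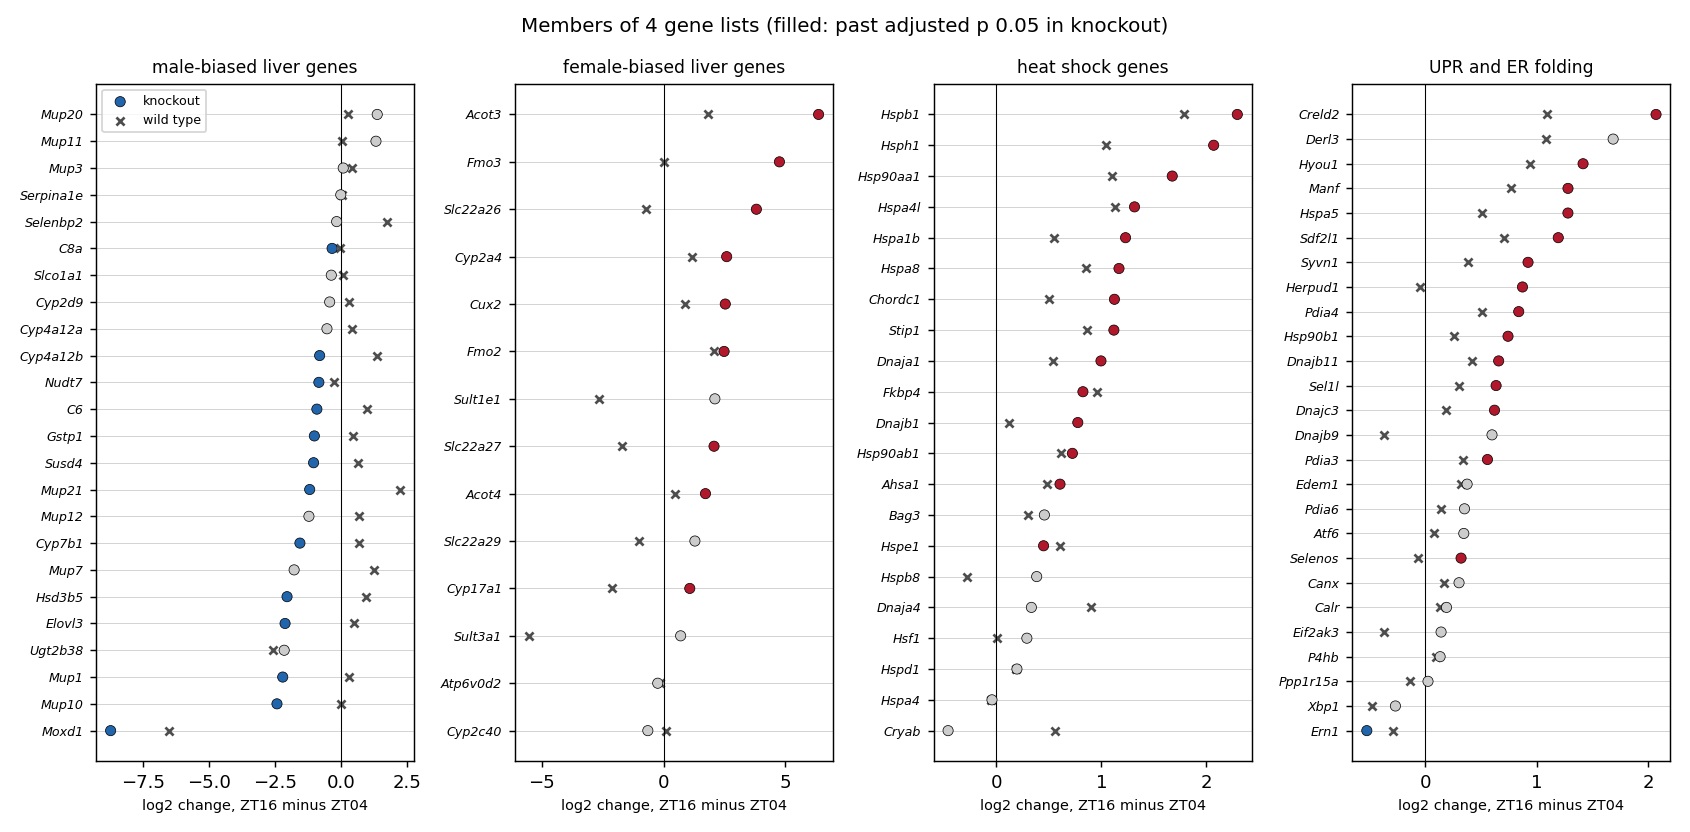
Log2 change, ZT16 minus ZT04, for each tested member of 4 gene lists. Circles are knockout, red or blue where past an adjusted p of 0.05 and grey otherwise, and crosses are wild type. In knockout 13 of 24 male-biased genes were lower, and 9 of 14 female-biased, 14 of 21 heat shock and 14 of 26 ER folding genes higher.

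Among genes of bile acids and sterols that passed the test, more fell than rose. Of 19 genes of bile acid synthesis and transport, 6 fell and 1 (Cyp39a1, 1.56) rose, against 5.15% and 4.56% of all genes tested. No member rose with any of the 4 libraries left out, without the set letter, in the fit of all 24 libraries or by DESeq2. Abcb11, the bile salt export pump, was at 932 and 1016 CPM at ZT04 and 522 and 615 CPM at ZT16 (-0.78 ± 0.11 SE, adjusted p 0.00254, and 0.334 in the fit of all 24 libraries). Cyp8b1, the 12-alpha-hydroxylase that sets the share of cholic acid, was at 596 and 492 CPM at ZT04 and 281 and 257 CPM at ZT16 (-1.02 ± 0.19 SE, adjusted p 0.00907), with the call lost without ZT04 set I (0.0692) or ZT16 set P (0.0634). Cyp7a1, the rate-limiting enzyme of bile acid synthesis, was at 903 and 621 CPM at ZT04 and 682 and 752 CPM at ZT16, with overlapping libraries (adjusted p 0.845). The count of falls was 2, 3, 3 and 2 without ZT04 set I, ZT04 set P, ZT16 set I and ZT16 set P, and 1 in the fit of all 24 libraries. The 26 genes of cholesterol synthesis and uptake differed between the sets. Their summed level went from 8316 to 4099 CPM in set I and from 6643 to 6728 CPM in set P. In set I 1 member was higher at ZT16, and in set P 10 were. Of the 26, 7 fell and none rose in the test. That count turned on single libraries, with 1 fall without ZT04 set I, 17 without ZT04 set P, 1 without ZT16 set I and 9 without ZT16 set P, and 2 without the set letter in the model. Scap, which escorts SREBP to the Golgi, kept its call with each library left out, at 135 and 128 CPM at ZT04 and 82.4 and 80.6 CPM at ZT16 (-0.69 ± 0.10 SE, adjusted p 0.00323). In fatty acid and triglyceride synthesis (28 genes), 2 rose and 1 fell, a share of 10.7% that lay near the 9.71% over all genes tested. Among them was Dgat2, the last step of triglyceride synthesis, which rose by 0.57 ± 0.10 SE (adjusted p 0.00528). Without ZT04 set I 9 rose and none fell, and without ZT04 set P, ZT16 set I and ZT16 set P there were 1, 2 and 1 rises and 1, 0 and 1 falls.

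Enzymes that conjugate drugs and hormones went both ways, with 9 of 40 higher and 10 lower, against 4.56% and 5.15% of all genes tested. Of the glutathione transferases of the mu class, Gstm2, Gstm3, Gstm4 and Gstm6 fell. Gstm4 was at 125 and 116 CPM at ZT04 and 43.1 and 49.4 CPM at ZT16 (-1.38 ± 0.13 SE, adjusted p 0.000272) and Gstm6 at 120.0 and 111 CPM at ZT04 and 47.7 and 59.1 CPM at ZT16 (-1.12 ± 0.13 SE, adjusted p 0.000872), with neither overlapping between times. Gstm2 changed by -0.96 ± 0.14 SE (adjusted p 0.00254, and 0.0548 in the fit of all 24 libraries). The call of Gstm3 was lost without ZT04 set I, ZT04 set P, ZT16 set I and ZT16 set P (0.16, 0.0517, 0.141 and 0.121), by DESeq2 (0.0517) and in the fit of all 24 libraries (0.126). These genes are neighbours of similar sequence on chromosome 3. Sult1a1, a phenol sulfotransferase, was at 207 and 212 CPM at ZT04 and 455 and 370.0 CPM at ZT16 (0.98 ± 0.11 SE, adjusted p 0.00079). Without ZT04 set I, ZT04 set P, ZT16 set I and ZT16 set P the rises numbered 6, 7, 4 and 7 and the falls 7, 7, 6 and 8, and in the fit of all 24 libraries both numbered 3. Of 26 P450 enzymes of drug metabolism, 4 rose and none fell (Cyp2a4, Cyp2a5, Cyp2c70 at 0.52 and Cyp3a13 at 0.58). Leaving out the libraries in the same order gave 2, 4, 3 and 3 rises, and the fit of all 24 libraries 2. Cyp2c70 was lost without ZT04 set I (0.0607) or ZT16 set P (0.0643) and Cyp3a13 without ZT04 set I (0.0754), and both in the fit of all 24 libraries (0.0887 and 0.105). Among 27 carboxylesterases and other phase I enzymes, 7 rose and 3 fell, with 4, 5, 3 and 6 rises and 1, 1, 1 and 3 falls in that order. One of the latter was Adh4, an alcohol and retinol dehydrogenase, at 207 and 209 CPM at ZT04 and 110.2 and 99.8 CPM at ZT16 (-0.99 ± 0.09 SE, adjusted p 0.000272). Cbr1, a carbonyl reductase, rose by 1.21 ± 0.16 SE (adjusted p 0.0015).

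Targets of glucocorticoids, whose level in nocturnal rodents is known to rise before the active phase, were partly higher at ZT16. Of 17, 6 rose and 1 (Klf9, -0.78) fell, the latter not without ZT04 set P (0.0555) or ZT16 set I (0.0799) or in the fit of all 24 libraries (0.246). Over all genes tested 4.56% rose and 5.15% fell. Fkbp5, a co-chaperone of the glucocorticoid receptor, was at 24.4 and 22.6 CPM at ZT04 and 74.5 and 88.7 CPM at ZT16 (1.79 ± 0.19 SE, adjusted p 0.000617). Tsc22d3, or GILZ, was at 85.5 and 65.8 CPM at ZT04 and 176 and 147 CPM at ZT16 (1.09 ± 0.17 SE, adjusted p 0.00408). Dusp1, a MAP kinase phosphatase, was at 8.59 and 9.21 CPM at ZT04 and 18.4 and 19.7 CPM at ZT16 (1.10 ± 0.15 SE, adjusted p 0.00175). No library overlapped between times in these 3 genes, and the count with 1 library left out ran from 4 to 6. Without ZT04 set P it was 4, as in the fit of all 24 libraries. Of 21 immediate early genes, 6 rose and 1 (Myc, -0.80) fell, with 2, 5, 2 and 5 rises without ZT04 set I, ZT04 set P, ZT16 set I and ZT16 set P and 3 in the fit of all 24 libraries. None fell without ZT04 set P, ZT16 set I or ZT16 set P, without the set letter, in the fit of all 24 libraries or by DESeq2. Egr1, a zinc finger factor induced by growth signals, was at 7.12 and 5.95 CPM at ZT04 and 63.3 and 27.1 CPM at ZT16 (2.73 ± 0.43 SE, adjusted p 0.00386, and 0.0547 in the fit of all 24 libraries).

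Genes of glucose use changed singly. Pfkfb1, which sets the level of fructose 2,6-bisphosphate, was at 31.1 and 26.9 CPM at ZT04 and 66 and 69.3 CPM at ZT16 (1.22 ± 0.12 SE, adjusted p 0.000464). Gys2, the liver glycogen synthase, was at 107 and 125 CPM at ZT04 and 177 and 201 CPM at ZT16 (0.70 ± 0.12 SE, adjusted p 0.00676). Both genes were higher in both ZT16 libraries. Over the lists, 3 of 22 genes of glycolysis and fructose use rose and 1 fell, and 2 of 21 genes of gluconeogenesis and glycogen rose and 1 fell. Among all genes tested 4.56% rose and 5.15% fell. Without ZT04 set I, ZT04 set P, ZT16 set I and ZT16 set P, the first list had 2, 2, 2 and 2 rises and 1, 0, 0 and 0 falls, and the second 2, 1, 1 and 3 rises and 1, 1, 0 and 0 falls. In the fit of all 24 libraries 1 and 2 rose and none fell. In amino acid breakdown and the urea cycle (37 genes) 5 rose and 4 fell. Of these Agxt, which removes glyoxylate, was at 238 and 289.7 CPM at ZT04 and 147 and 112 CPM at ZT16 (-1.05 ± 0.15 SE, adjusted p 0.0029). The 5 rises became 4, 1, 0 and 3 and the 4 falls 1, 2, 3 and 1 without ZT04 set I, ZT04 set P, ZT16 set I and ZT16 set P. Tk1, thymidine kinase, rose by 1.26 ± 0.14 SE (adjusted p 0.00079).

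Large falls beyond the clock and the sex-biased lists were in genes without a common list. Fam129b, a membrane-associated protein, was at 51.3 and 44.4 CPM at ZT04 and 10.3 and 9.47 CPM at ZT16 (-2.28 ± 0.17 SE, adjusted p 0.000118). Gas7, which binds actin, was at 41.8 and 43 CPM at ZT04 and 9.88 and 9.07 CPM at ZT16 (-2.16 ± 0.15 SE, adjusted p 7e-05). Fmn2, an actin-nucleating formin, was at 10.6 and 13.2 CPM at ZT04 and 1.1 and 2.35 CPM at ZT16 (-2.80 ± 0.31 SE, adjusted p 0.000702). In each, both ZT04 libraries were above both ZT16 libraries.
Serpina12, or vaspin, changed by -2.45 ± 0.34 SE (adjusted p 0.00224) and Raet1e, a ligand of the receptor NKG2D, by -2.22 ± 0.27 SE (adjusted p 0.00103). Rian, a long noncoding RNA of the imprinted Dlk1 to Dio3 region of chromosome 12, was at 35.1 and 18.3 CPM at ZT04 and 6.31 and 5.23 CPM at ZT16 (-2.17 ± 0.27 SE, adjusted p 0.0012). Meg3, of the same region, was at 38.7 and 18.4 CPM at ZT04 and 8.4 and 6.26 CPM at ZT16 (-1.91 ± 0.17 SE, adjusted p 0.000259). For both the highest library was ZT04 set I. Hectd2os, an antisense transcript, was at 21.5 and 30.5 CPM at ZT04 and 3.24 and 4.36 CPM at ZT16 (-2.77 ± 0.26 SE, adjusted p 0.000275), and the strand setting of the counting is not given in the sources used here.

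Many lists held few or no calls, as the plot of list shares shows. None of 28 secreted plasma proteins, 19 genes of iron handling, 20 tRNA synthetases, 14 subunits of the CCT chaperonin and 10 respiratory chain genes of the mitochondrial genome passed in edgeR. At an unadjusted p under 0.05 there were 4, 7, 7, 5 and 0 of them, and DESeq2 called 1, 1, 0, 0 and 0. Of 80 cytosolic ribosomal proteins 3 rose, of 77 mitochondrial ribosomal proteins 1 fell, and of 80 nuclear-encoded subunits of oxidative phosphorylation 1 rose and 1 fell, all at or below the background of 9.71%. With any of the 4 libraries left out the cytosolic list had 0 or 1 rise and the mitochondrial list no fall. In the interferon response (33 genes) 6 fell and none rose. That count was 2, 1, 1 and 2 without ZT04 set I, ZT04 set P, ZT16 set I and ZT16 set P, 2 without the set letter in the model and 1 in the fit of all 24 libraries. Of 38 proteasome genes 3 fell, and of 31 cell cycle genes 3 rose. In the same order these became 0, 3, 0 and 0 falls and 1, 3, 1 and 3 rises, with 0 and 1 in the fit of all 24 libraries. The growth hormone and IGF axis (14 genes) had 1 rise, Cux2, and 1 fall, Cish, a feedback inhibitor of growth hormone signalling, at 11.7 and 23.5 CPM at ZT04 and 2.14 and 7.23 CPM at ZT16 (-1.91 ± 0.53 SE, adjusted p 0.0444). The call of Cish was lost without ZT04 set P (0.299) or ZT16 set I (0.274) and without the set letter (0.0516), by DESeq2 (0.0799), by limma-voom (0.0589) and in the fit of all 24 libraries (0.301).

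**Figure D4:**
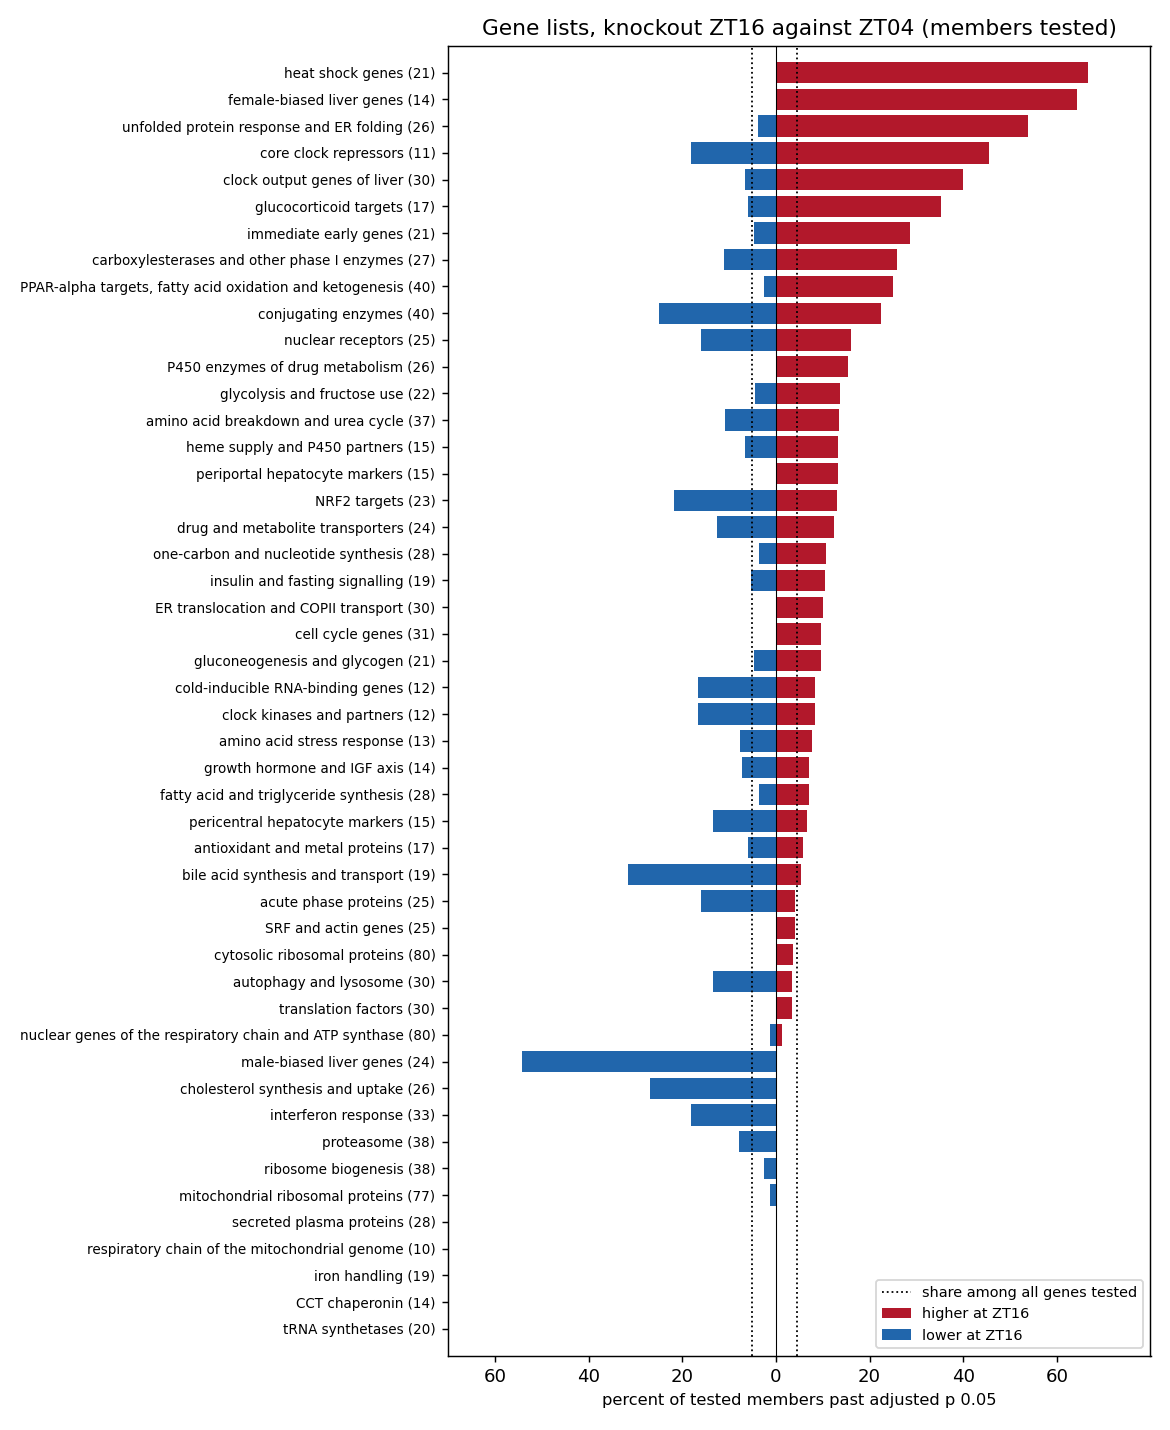
Share of the tested members of each list (number in brackets) that passed an adjusted p of 0.05, higher at ZT16 to the right in red and lower to the left in blue, in percent. Dotted lines mark the shares among all genes tested, 4.56% and 5.15%.

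Few markers of other cell types passed the test, with none that passed among 11 Kupffer cell and 10 sinusoidal endothelial markers (edgeR; 3 and 5 at an unadjusted p under 0.05). Kupffer cell markers summed to 650 to 694 CPM at ZT04 and 741 to 851 CPM at ZT16. Sinusoidal endothelial markers summed to 518 to 588 and 530 to 543 CPM. Of 11 stellate cell and fibroblast markers 1 passed, at sums of 396 to 449 and 406 to 471 CPM. Pancreatic acinar markers summed to 22.8 to 29 CPM at ZT04 and 7.58 to 8.01 CPM at ZT16. This was nearly all Cela1, an elastase at 28.4 and 22.4 CPM at ZT04 and 7.85 and 7.41 CPM at ZT16 (-1.73 ± 0.20 SE, adjusted p 0.00079), while 5 of the 10 markers had 0 counts in all 4 libraries. Spp1, counted among the bile duct markers, was at 35 and 41.9 CPM at ZT04 and 18.4 and 26.1 CPM at ZT16 (-0.80 ± 0.11 SE, adjusted p 0.00229, with 0.134 in the fit of all 24 libraries and 0.0615 in a fit of the 4 libraries without the set letter). T and NK cell markers summed to 6.15 to 7.43 CPM at ZT04 and 8.34 to 13.6 CPM at ZT16, and 2 of 7 tested, Gzma and Cd8a, passed. Both calls were lost with each of the 4 libraries left out (0.0859 to 0.159 and 0.0511 to 0.248) and without the set letter (0.134 and 0.186). Red blood cell markers summed to 285 to 445 CPM at ZT04 and 199 to 303 CPM at ZT16, and 1 of 7 tested passed. This was Alas2, the heme synthesis enzyme of red cell precursors, at 134 and 117 CPM at ZT04 and 66.2 and 86.4 CPM at ZT16 (-0.72 ± 0.15 SE, adjusted p 0.0136), which was lost without ZT04 set I (0.0838) or ZT16 set I (0.141) and in the fit of all 24 libraries (0.229). B and plasma cell markers summed to 16.6 to 21.4 CPM and 16.6 to 43.5 CPM, and of 7 tested none passed (edgeR; 1 at an unadjusted p under 0.05). The part of cell mixture in the gene changes was not tested.

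Pairs of times 12 h apart in other libraries placed the changes within the day. Between ZT08 and ZT20 in knockout 953 genes were higher and 823 lower at ZT20, or 12.1% of those tested (6.5% and 5.61%). Of the 669 genes higher at ZT16 than at ZT04, 176 were also higher at ZT20 than at ZT08 (26.3% of the first list and 18.5% of the second) and 53 were lower. Of the 756 lower genes 130 were lower there too (17.2% and 15.8%) and 74 were higher. The higher and lower genes of this pair numbered 343 and 225 without ZT20 set I, 485 and 294 without ZT20 set P, 304 and 216 without ZT08 set I and 373 and 261 without ZT08 set P. Among the clock genes, Nr1d1 (-5.24) and Cry1 (2.47) changed the same way in both pairs, while Per1 (-1.31), Ciart (-3.45) and Usp2 (-0.97) fell from ZT08 to ZT20. Elovl3 rose there (2.26, adjusted p 0.0012) and Hsd3b5 fell (-0.89, adjusted p 0.00457). Acot3 and Cyp4a14 did not pass (0.65 and 0.79). By list, rises and falls from ZT08 to ZT20 were 11 and 0 of 21 heat shock genes and 9 and 2 of 26 ER folding genes. They were 13 and 10 of 30 clock outputs, 2 and 5 of 40 PPAR-alpha genes and 2 and 0 of 14 female-biased genes. Male-biased genes had 1 and 1 of 24 (median -0.01), cholesterol genes 8 and 0 of 26 and bile acid genes 3 and 1 of 19. By the mean of each time, 68% of the genes higher at ZT16 had their daily maximum there and 19.6% at ZT12, and 55.4% of the lower genes had it at ZT04, 20.1% at ZT08 and 15.5% at ZT24. Over all genes tested the shares were 15.3% at ZT04, 17.8% at ZT08, 17.6% at ZT12, 20.4% at ZT16 and 13.3% at ZT24. The share of the higher genes at ZT12 and those of the lower genes at ZT08 and ZT24 lay near these. Other shares lay below, with 2.54% of the higher genes at ZT08 and 1.79% at ZT24, and 4.37% of the lower genes at ZT12. The 4 libraries compared chose the lists, so all these shares are a description.

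The same times in wild type gave a smaller list, but from another fit and from libraries of wider spread. The sizes of the lists therefore do not compare the genotypes. Chi-square per degree of freedom between libraries of a group was 27.2 to 204 in wild type and 14.8 to 21.9 in knockout. In the fit of all 24 libraries knockout had 188 higher and 182 lower genes. In that fit wild type had 147 genes higher and 131 lower at ZT16, or 1.84% of 15090 tested (0.974% and 0.868%). The higher and lower genes numbered 29 and 8 without ZT16 set I, 41 and 14 without ZT16 set P, 25 and 23 without ZT04 set I and 106 and 154 without ZT04 set P. Of the knockout lists, 81 of the 669 and 68 of the 756 were called the same way in wild type, which is 55.1% and 51.9% of the wild-type lists, and 2 and 1 were called the opposite way. The sign was shared by 80.6% and 81.2%, with a median wild-type change of 0.34 and -0.29 against 0.70 and -0.66 in knockout. These genes were chosen for their change in knockout, which favours a larger median there. The medians are thus a description and do not compare the genotypes. The difference between genotypes passed for 1 of the 15090 genes (0.00663%), with 1136 at an unadjusted p under 0.05 and 90 by DESeq2. A gene called in 1 genotype alone is therefore not shown to differ between them.

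**Figure D5:**
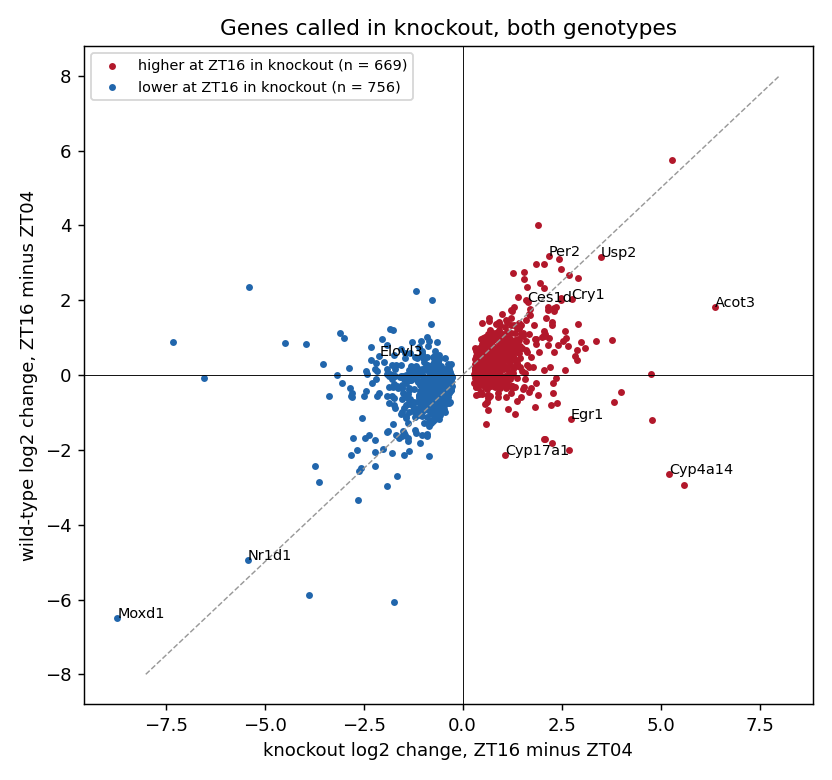
Log2 change, ZT16 minus ZT04, in knockout (x axis) and wild type (y axis) for the 1425 genes called in knockout. Red genes were higher and blue genes lower in knockout, and the dashed line marks equal change. Nr1d1, Usp2 and Cry1 lie near the line and Cyp4a14 far from it.

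Clock genes changed in wild type as well, at -4.93 for Nr1d1, 2.03 for Cry1 and 3.19 for Per2 (adjusted p 0.0011, 0.000454 and 0.000724). Cyp4a14 in wild type was at 1279 and 932 CPM at ZT04 and 67.2 and 261 CPM at ZT16, a change of -2.63 (adjusted p 0.236). Its level at ZT04 was lower in both knockout libraries than in both wild-type libraries. Elovl3 in wild type was at 216 and 264 CPM at ZT04 and 464 and 221 CPM at ZT16 (0.52, adjusted p 0.594). Cyp17a1, a steroid hydroxylase of the female-biased list, fell in wild type from 118 and 30.7 CPM to 11.7 and 15.1 CPM (-2.13, adjusted p 0.0236). In knockout it was at 16.3 and 14.9 CPM at ZT04 and 27.7 and 39 CPM at ZT16 (1.08 ± 0.22 SE, adjusted p 0.0115), a call lost without ZT04 set P (0.0972) or ZT16 set P (0.0792) and in the fit of all 24 libraries (0.213). Knockout minus wild-type differences were 7.91 for Cyp4a14, -2.63 for Elovl3, 3.20 for Cyp17a1, 2.83 for Slc16a5 and -2.70 for Meg3, none past the adjusted threshold. St3gal5 did not pass in wild type (0.61, adjusted p 0.192, difference 1.31), where its ZT04 libraries held 189 and 90 CPM.

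Promoter windows were on hand for 10685 of the tested genes. The D-box, searched as TTATGTAA or TTACGTAA on both strands, stood in 1.22% of the windows of risen genes (8 windows), 0.496% of those of fallen genes (4) and 0.782% of all windows tested. The ROR element TNAGGTCA stood in 3.35%, 3.59% and 3.42%, the CRE TGACGTCA in 1.98%, 2.35% and 2.83%, and the sterol element TCACNCCAC in 2.13%, 1.73% and 1.21%. The CArG box stood in 0.915%, 1.49% and 1.24%. The NF-Y box CCAAT stood in 42.2%, 35.7% and 37.3%. These shares describe letters within 300 bases and were not tested.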

How the data were processed

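Messenger RNA of mouse liver was sequenced by the authors from 2 libraries per genotype and time, with libraries from Illumina's stranded TruSeq kit (labels' protocols). Raw read counts were deposited by the authors for 54532 Ensembl genes in 24 columns, all used and none normalized. The submitters' processing notes name STAR 2.4.0i and mm10. The counter, its annotation and its use of strand are not given in the sources consulted. Reads of overlapping genes and near-identical copies may have been divided in ways that could not be checked. Symbols came from GENCODE M21.

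The deposited counts were tested in R 4.3.3 by the quasi-likelihood method of edgeR 4.0.16, with Benjamini-Hochberg adjustment over all genes tested. The knockout comparisons used 1 fit of the 12 knockout libraries with 6 time means and the set letter as a block, because the comparison is defined as matched by letter. Genes were kept by filterByExpr (minimum count 10) and library sizes scaled by TMM over the 24 libraries. CPM are counts over those sizes. Wild type and the difference between genotypes were tested in a fit of all 24 libraries with a set term per genotype. Errors of log2 changes are standard errors.

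Genes named were the deleted and core clock genes, the 12 largest rises and 12 largest falls with separate libraries and an average of 1 or more in log2 CPM, the 5 most significant members of each list, and 8 genes each way with the smallest p for the genotype difference. Some genes that this rule names are not reported here. Cyp7a1, Cpt1a, Xbp1, Ddx3y and single members that went against their list were named after their values were seen. The comparison, and with it its member libraries, and the 50 gene lists were chosen with earlier results of these data known. On simulated counts of the knockout comparison (14411 genes, 200 of them changed) the fit recovered 69% of the changes of log2 1 and 96.9% of those of log2 2, with 14 false calls. These counts were drawn from 1 mean per gene and the spread estimated by the same model. They held no difference between sets and no change at other times, so the figures are not error rates of the real comparison. Alternatives were other tools (DESeq2 1.42.0, limma-voom), scaling, filters, thresholds, a GC and length correction, fits of 4 or 24 libraries, and leaving out each library. Totals ran from 14613001 to 19288322 counts per library, and without molecular identifiers counts are not independent molecules.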

Additional observations from a re-analysis of the deposited data

Results flagged for a closer look

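One gene had a change between the times that differed between genotypes in the test of that difference. Rps13-ps1, a processed copy of a ribosomal protein gene on chromosome 8, was at 10.6 and 9.51 CPM at ZT04 and 10 and 12.6 CPM at ZT16 in knockout. In wild type it had 0 counts in both ZT04 libraries and 13.3 and 5.22 CPM at ZT16. The fitted difference, knockout minus wild type, was -10.25 on the log2 scale (edgeR, adjusted p 0.00121), a size that depends on the prior count because of the zeros. Against a floor of 3 counts per library, its wild-type mean at ZT16 of 9.24 CPM was at least 43.0-fold higher than at ZT04. The call was lost without the replicate block. How the authors' counting divided reads between this copy and its parent gene was not tested.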

How the results depend on the processing

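With 2 libraries per time, the number of called genes moved between alternatives. The named genes past the threshold were called in these same libraries. All 669 higher and all 756 lower genes had the same sign in set I and in set P. A turn of direction was therefore hardly possible for them, and its count is a description. Of 182 named genes past the threshold, 57 kept their call in all 15 alternatives, and of 2728 pairs of gene and alternative 2120 kept direction and call, 608 lost the call and 0 turned direction. The counts of 669 higher and 756 lower genes became 1097 and 1186 with no filter, 299 and 272 in a fit of the 4 libraries without the set letter, 363 and 335 in that fit with it, 188 and 182 in the fit of all 24 libraries, 244 and 255 at an adjusted p under 0.01, and 205 and 198 at a log2 change of at least 1. With 1 library left out they ran from 217 to 463 and from 183 to 495, where the lone library left in a group was assumed to vary like the others. For ZT20 against ZT08 (953 and 823) DESeq2 called 538 lower genes, and leaving out 1 library gave 304 to 485 and 216 to 294. For wild type (147 and 131) the counts were 42 and 31 without the replicate block, 317 and 289 by DESeq2, and 25 to 106 and 8 to 154 with 1 library left out. For the genotype difference (0 and 1) they were 0 lower without the replicate block, 35 and 55 by DESeq2, 18 and 22 with no filter, and 0 to 10 and 1 to 14 with 1 library left out. The cause of these shifts was not tested. The E-box share of fallen genes was 8.05% in the 250 bases before the start. The direction turned for genes that had not passed: Arntl2 (-0.003 without the block, -0.165 by limma-voom, -0.01 and -0.003 in the fits of 4 libraries, and -0.967 to 0.928 with 1 library left out). With 1 library left out Arntl ran from -0.056 to 0.421, Clock from -0.352 to 0.024, Per3 from -0.218 to 1.496, Plin2 from -0.103 to 0.318, Selenbp2 from -0.418 to 0.161 and Tmc5 from -0.821 to 0.132.

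Without the replicate block the knockout comparison called 469 higher and 536 lower genes, 1005 of them shared with the blocked fit. Differences between set I and set P correlated at r of 0.119 between ZT04 and ZT16 across genes, and at 0.0908 to 0.269 over the 15 pairs of knockout times, with 14 of 15 above 0.1, so that the letters are not shown to pair the libraries. TMM over the 12 knockout libraries, chosen after seeing the data, gave 661 and 780.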

Other observations

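In 2 further lists a gene stayed past the threshold with each of the 4 libraries left out. Among 30 genes of autophagy and lysosome 1 rose and 4 fell, and the rise was Bnip3, a receptor for removal of mitochondria, at 56 and 70.8 CPM at ZT04 and 109 and 109.7 CPM at ZT16 (0.79 ± 0.12 SE, adjusted p 0.00298). The efflux pump Abcg2, of 24 drug and metabolite transporters with 3 rises and 3 falls, was at 57.2 and 68.7 CPM at ZT04 and 32 and 43 CPM at ZT16 (-0.75 ± 0.11 SE, adjusted p 0.00308). Both ZT16 libraries were beyond both ZT04 libraries in both genes. Over all genes tested 4.56% rose and 5.15% fell. The falls of the first list became 2, 1, 0 and 3 without ZT04 set I, ZT04 set P, ZT16 set I and ZT16 set P, and the transporters 1, 2, 2 and 1 rises and 3, 1, 1 and 3 falls. Of 25 nuclear receptors 4 rose and 4 fell, which in that order became 2, 1, 0 and 1 rises and 2, 2, 0 and 2 falls. Of 23 NRF2 targets 3 rose and 5 fell, which became 3, 2, 1 and 2 rises and 0, 3, 1 and 1 falls.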
